A study of Mus musculus with 4 samples.

Results

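This account covers 34 genes of cholesterol and fatty acid synthesis and their control, out of 21147 genes with a named probe on the array. They were taken from a list of gene symbols, through the RefSeq transcript that each array probe was designed on. All 34 had at least 1 probe, 49 probes in all, and the brightest probe of each gene read well above background on all 4 arrays, so none was lost to the filter on dim probes. The list holds 18 enzymes that lead from acetyl-CoA to cholesterol, 5 genes of the sterol sensor (Srebf1, Srebf2, Scap, Insig1, Insig2), the sterol carrier Stard4, 5 genes of the oxysterol receptor axis (Nr1h2, Nr1h3, Abca1, Abcg1, Mylip) and 5 enzymes of fatty acid synthesis and desaturation (Acly, Acaca, Fasn, Scd1, Scd2).

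Cells make cholesterol through the mevalonate pathway, and the genes of this pathway are switched together by the transcription factor SREBP2, the product of Srebf2. SREBP precursors sit in the endoplasmic reticulum with Scap. When sterols are plentiful, the Insig proteins hold that complex back; when sterols are scarce, SREBPs are cut and enter the nucleus, where they act beside NF-Y and Sp1. SREBP1, from Srebf1, favours fatty acid genes, and the liver X receptors, from Nr1h2 and Nr1h3, respond to oxysterols by raising sterol export. Dividing blood progenitors need both lipid classes for new membrane.

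The mice carried bone marrow of strain C57BL/6 with the JAK2V617F mutation, which drives myeloproliferative disease, and with floxed Ezh2 alleles that a Cre-ERT2 recombinase had deleted; the marrow had been grafted into irradiated wild-type hosts marked by CD45.1. All 4 groups share this genotype and graft, and none is wild type. They differ in cell type (LSK, the Lineage-negative Sca-1-positive c-Kit-positive stem and multipotent progenitors, or MEP, the megakaryocyte and erythroid progenitors) and in treatment (2 weeks of JQ1, an inhibitor of BET bromodomain proteins, or of its solvent DMSO). Each group has 1 array from 20 ng of RNA, on 1 shared slide. The number and age of the mice, and whether host cells were gated out, are not given in the sources used here.

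Since every group is a single array, no test, p-value or replicate spread could be given. A level below is the log2 of a gene's signal over its array's 75th percentile, from its brightest probe, and levels are compared only between arrays for the same gene. Where 4 levels are given in a row, LSK comes first (DMSO, then JQ1) and MEP follows (DMSO, then JQ1). A difference is in log2 units relative to the median measured gene of that comparison, so that 0 means the same shift as the median gene. Array error can be seen in the scanner software's own error of a difference, 0.204 to 0.239 log2 for the members over the 4 comparisons. It can also be seen in the spread between probes of a gene, whose SD was 0.26 log2 for the JQ1 effect among LSK arrays and 0.39 among MEP arrays, and for the cell types 0.37 with DMSO and 0.27 with JQ1. Neither covers mice, sorts or RNA preparation. Differences of at least 0.5 log2 (1.41-fold) and at least 1 log2 (2-fold) are counted.

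The arrays had 25156 to 29603 of 55681 probes well above background, and no probe spot was saturated. The DMSO MEP array correlated least with the others across probes, at 0.973 to 0.976, and it is the sole array of its group. JQ1 MEP correlated only a little more with the LSK arrays (0.979 with DMSO, 0.982 with JQ1), and the LSK arrays, of 1 cell type, at 0.991. The median gene lay at 0.06 (LSK) and 0.34 (MEP) for JQ1 minus DMSO before centring, and at -0.22 (DMSO) and 0.07 (JQ1) for MEP minus LSK. Before centring, the members' median for JQ1 minus DMSO in MEP was 0.51, but 0.92 with scaling to the array median and -0.35 with scaling to 8 spike-in probes, so directions are stated only relative to the median gene. Levels are not centred, so which array reads highest or lowest for a gene includes this shift. The median gene itself was lowest on DMSO MEP and highest on JQ1 MEP. Among cell type markers, Ly6a (Sca-1) read 4.49 and 4.28 on the DMSO and JQ1 LSK arrays and -0.32 and 0.22 on the MEP arrays. Gata1 read 2.98 and 2.81 against 5.37 and 6.43. In MEP minus LSK under DMSO, 9 of 10 stem and multipotent progenitor genes lay below the median gene and 1, Mecom, above it. All 10 erythroid and megakaryocyte genes lay above it. Kit was at only -0.67, and Cd34 still read 6.41 and 6.46 on the MEP arrays. Neutrophil genes had 3 of 6 measured members above the median gene under DMSO and 7 of 7 under JQ1. The purity of the sorts was not tested. Ezh2 read 3.36, 3.43, 3.31 and 3.69, and whether its probe lies in the deleted stretch cannot be told from these files, so it checks nothing about the deletion.

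Promoter sequence shows what the sterol enzymes share beyond their function. In the 250 bases before the start site, from RefSeq on GRCm38.p6, a CCAAT box, the NF-Y site, was present on either strand for 14 of 15 sterol enzymes with an entry, against 40.42% of 9665 genes measured on all arrays and 33.85% of all 32851 promoters. The other members with an entry held it in 6 of 12. The Sp1 site GGGCGG was present for 14 of the 15 enzymes (62.22% of measured genes), and the E-box CACGTG for 3 (9.93%). The sterol regulatory element in the strict form TCACNCCAC was found for 1 member, Hmgcs1, against 1.05% of all promoters; sites that differ from these letters were not searched. Genes with several promoters counted if any held the motif. Fdps, Fdft1, Sqle, Stard4, Abcg1, Scd1 and Scd2 had no entry.

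Below are the 200 bases before the start site of 5 members, written 5′ to 3′ on the gene's own strand, with CCAAT boxes (read as ATTGG on the other strand) and the sterol regulatory element in capitals. Hmgcs1 is shown for that element, Mvk for its many boxes, and Cyp51 because its JQ1 difference in MEP was among the highest of the enzymes. Tm7sf2 is shown because its JQ1 difference was below the median gene in both cell types, and Mylip because its JQ1 difference in MEP was the lowest of the members. Their windows lie at chr13:119690151-119690350 (+), chr5:114444069-114444268 (+), chr5:4104698-4104897 (-), chr19:6067851-6068050 (-) and chr13:45389542-45389741 (+) in that order.
Hmgcs1: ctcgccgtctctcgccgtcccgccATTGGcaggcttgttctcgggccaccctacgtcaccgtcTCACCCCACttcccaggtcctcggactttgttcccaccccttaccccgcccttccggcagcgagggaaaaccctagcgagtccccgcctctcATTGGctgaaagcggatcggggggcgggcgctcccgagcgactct
Mvk: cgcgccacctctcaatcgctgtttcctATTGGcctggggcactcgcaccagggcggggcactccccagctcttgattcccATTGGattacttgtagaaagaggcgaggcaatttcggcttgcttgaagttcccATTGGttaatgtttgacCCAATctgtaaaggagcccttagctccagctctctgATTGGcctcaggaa
Cyp51: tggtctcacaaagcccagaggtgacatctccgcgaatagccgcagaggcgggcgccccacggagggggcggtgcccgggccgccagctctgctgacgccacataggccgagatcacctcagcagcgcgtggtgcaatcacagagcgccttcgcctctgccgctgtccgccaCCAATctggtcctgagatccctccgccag
Tm7sf2: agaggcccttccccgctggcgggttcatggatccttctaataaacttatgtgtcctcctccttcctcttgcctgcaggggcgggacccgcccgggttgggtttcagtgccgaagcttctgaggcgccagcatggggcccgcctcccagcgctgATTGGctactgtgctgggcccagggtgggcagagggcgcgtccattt
Mylip: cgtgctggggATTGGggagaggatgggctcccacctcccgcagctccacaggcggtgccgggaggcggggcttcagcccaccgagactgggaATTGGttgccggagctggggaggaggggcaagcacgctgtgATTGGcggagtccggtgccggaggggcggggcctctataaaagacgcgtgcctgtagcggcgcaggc
Mvk, which phosphorylates mevalonate, held 5 boxes in this window, Mylip 3, Hmgcs1 2, and Cyp51 and Tm7sf2 1 each. Members that held the box thus differed in the direction of their values, and a match is a description of the letters only.

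**Figure D1:**
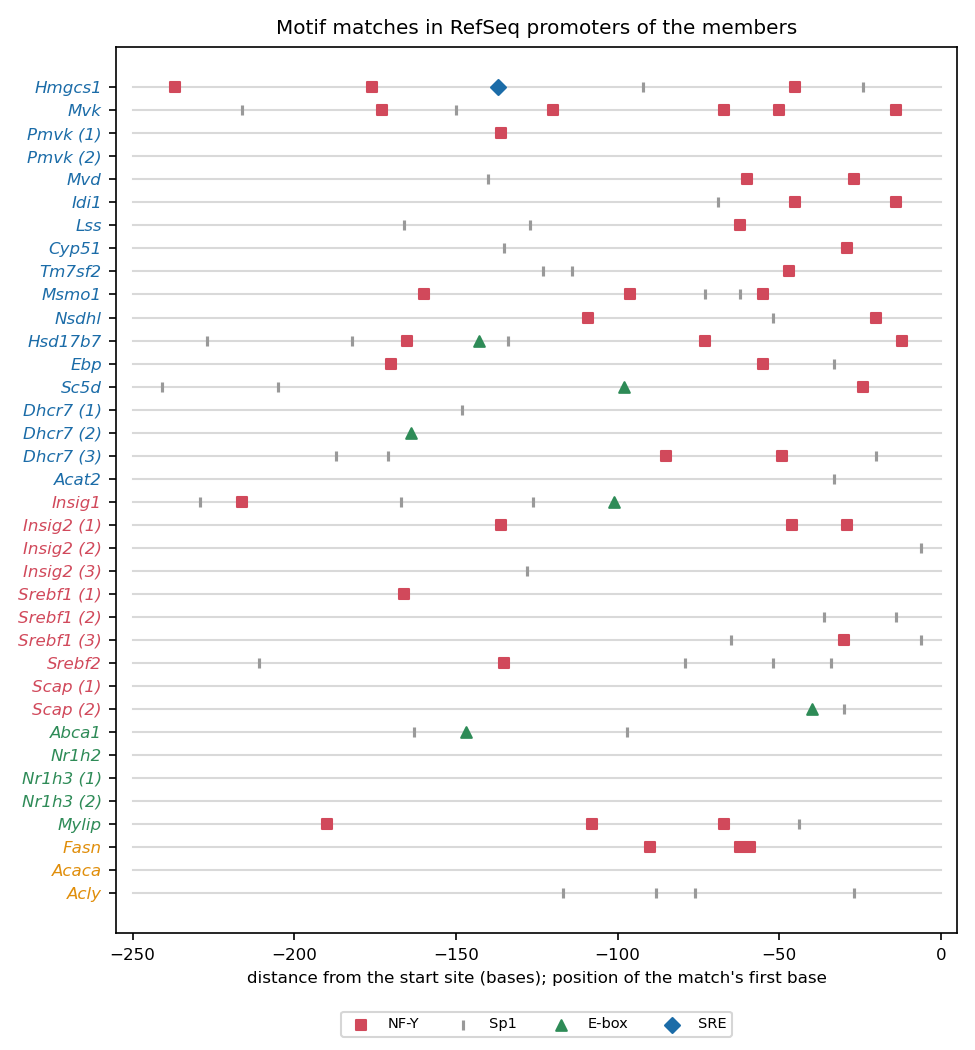
Positions of motif matches in the 250 bases before the start site (x axis, bases from the start) of the 27 members with a RefSeq promoter, with several promoters of a gene numbered; red squares are NF-Y sites, grey ticks Sp1 sites, green triangles E-boxes and the blue diamond the sterol regulatory element. Red squares stand in 14 of the 15 sterol enzymes (blue names) and in 6 of the 12 other genes.

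In LSK cells most sterol enzymes differed little between JQ1 and DMSO, and a few were lower with JQ1. Of 18 enzymes, 13 lay below the median gene and 5 above it, where 50% of all measured genes lie above by construction, and their median was -0.08. Without the background filter 10 enzymes lay above it. By 0.5 log2, 3 enzymes were lower (9.31% of 12322 measured genes) and none was higher (3.37%). Over all 34 members 4 were lower (1 among genes above the median signal) and none higher (4 without the background filter), and 1, Scd1, passed 2-fold (3.77% of measured genes in either direction).

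Scd1, the desaturase that makes oleate and palmitoleate, read -0.54, -2.42, -1.61 and -1.31. The DMSO LSK array was the high one and the JQ1 LSK array the low one, with both MEP arrays between them. Scd1 was thus 3.84-fold lower with JQ1 in LSK (-1.94) and at -0.04 in MEP. It has a single probe, and with normexp background correction the LSK difference was -1.30. Its paralog Scd2 read 5.24, 5.17, 4.67 and 5.29, with differences of -0.14 in LSK and 0.28 in MEP.

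Markers of other cell types differed in the same comparison. The macrophage list had 7 of 12 members above background on DMSO LSK and 8 on JQ1 LSK, and its summed level (in units of the 75th percentile) was 49.3 and 19.7; it was 17.4 and 20.1 on the DMSO and JQ1 MEP arrays. The macrophage colony-stimulating factor receptor Csf1r read 5.35, 3.82, 3.27 and 3.69, and in linear units it made up 40.8 and 14.1 of the sums on DMSO LSK and JQ1 LSK. Of the 7 measured members 4 lay below the median gene in LSK and 3 above it (C1qa at 0.55, C1qb at 0.35, Vcam1 at 0.01), while Mrc1, Cd163 and Mertk were above background on no array. B-lineage genes, 7 of 8 above background on every array, had a summed level of 190.0 on DMSO LSK and 44.9 on JQ1 LSK, and 66.9 and 27.2 in MEP. Of 5 measured neutrophil genes 3 lay above the median gene in LSK (S100a8 at 0.98, S100a9 at 1.47, Camp at 1.91) and 2 below (Mpo at -0.85, Elane at -1.09), at a median of 0.98. The summed level of this list was 1066 on DMSO LSK and 641 on JQ1 LSK. Mpo was by far its brightest gene, reading 9.96 and 9.18 on these arrays, so the sum mostly follows Mpo. Of 10 stem and multipotent progenitor genes 6 lay above the median gene, at a median of 0.41. The part of such cells in the Scd1 value was not tested, and fewer cells of a type cannot be told apart from less RNA per cell in bulk samples.

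Among the enzymes, Fdps, which makes farnesyl diphosphate for sterols and for protein prenylation, read 5.33, 4.68, 4.61 and 5.36. It was 1.64-fold lower with JQ1 in LSK (-0.72), and it read high on DMSO LSK and JQ1 MEP. Tm7sf2, a sterol C14 reductase, read 1.66, 0.98, 1.32 and 1.22, a difference of -0.74 in LSK, and its second probe gave -0.86. It was highest on DMSO LSK. Nsdhl, which removes the C4 methyl groups, read 0.01, -0.47, -0.31 and 0.11. Its JQ1 difference in LSK was -0.54, but its second probe gave -0.20, and the second probe of Hsd17b7 gave -0.72 where the brighter one gave 0.05.

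The sterol enzymes other than Fdps, Tm7sf2 and Nsdhl differed less in LSK, each by under 0.5 log2 for its brightest probe. Hmgcs1, the synthase that makes HMG-CoA, was at 0.11, and the epoxidase Sqle, a rate-controlling step, at -0.02. Of the mevalonate steps, Mvk was at -0.29, Pmvk at -0.17, Mvd at -0.38 and the isomerase Idi1 at -0.23. From squalene onwards Fdft1 was at -0.04, Lss at 0.17, Cyp51 at -0.02, Msmo1 at 0.03, Hsd17b7 at 0.05, Ebp at -0.12 and Sc5d at -0.01. The last reductase, Dhcr7, was highest of the enzymes at 0.46, and the thiolase Acat2 was at -0.26. Apart from Mvd and Dhcr7, these values lie within about the probe SD of 0.26, with Mvk just outside it.

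The sensor genes in LSK lay between -0.12 (Insig2) and 0.22 (Srebf1), with Srebf2 at 0.15. Stard4, a carrier that moves sterol between membranes, was at 0.44, although its dimmer probe gave -0.07. In the oxysterol receptor axis the receptor Nr1h3 was at 0.46 (second probe 0.07) and the exporter Abcg1 at 0.37, while Nr1h2 was at -0.07, Abca1 at -0.16 and Mylip at 0.06. None of these members reached 0.5 log2.

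In MEP cells the sterol enzymes lay mostly above the median gene with JQ1. Of 18 enzymes, 16 were above it (50% of measured genes), with a median of 0.19, and 2 were higher by 0.5 log2, Sqle and Cyp51. Over all members 23 of 34 were above the median gene with a median of 0.17. By 0.5 log2, 5 members were higher, where 6.76% of 12536 measured genes were, and 2 were lower, where 16.6% were. No member passed 2-fold, against 6.75% of measured genes in either direction. The 5 higher members became 3 with quantile normalization or normexp, and 0 without the background filter or among genes above the median signal, where 16 members remain.

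**Figure D2:**
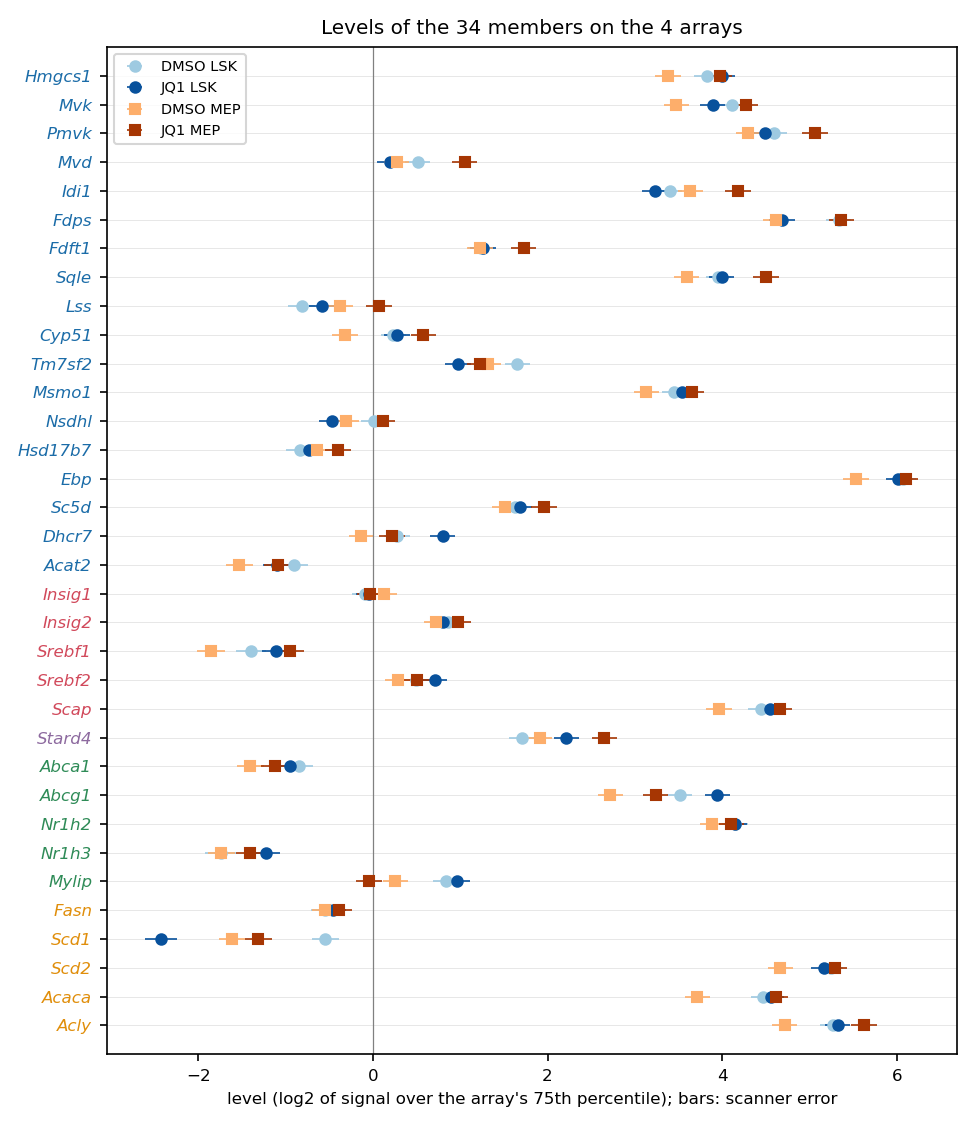
Level of each member (y axis, coloured by group) on the 4 arrays as log2 of signal over the array's 75th percentile; circles are LSK, squares MEP, pale DMSO and dark JQ1, and bars are the scanner error. The pale orange square, DMSO MEP, is the lowest of the 4 points for many sterol enzymes, and the Scd1 row has the widest spread, from -2.42 to -0.54. These levels are not centred, and with this scaling the median gene was itself lowest on DMSO MEP.

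The enzymes past 0.5 log2 oxidise squalene and demethylate lanosterol. Sqle read 3.95, 3.99, 3.59 and 4.5, a 1.48-fold higher value with JQ1 in MEP (0.57). JQ1 MEP was its highest array and DMSO MEP its lowest, as for the median gene before centring. The lanosterol demethylase Cyp51 read 0.24, 0.28, -0.32 and 0.58, which is 1.47-fold higher (0.56), with the same arrays at the ends. Hmgcs1 read 3.82, 4.0, 3.38 and 3.97, with a difference of 0.25. Only DMSO MEP stood low, at -0.23 against DMSO LSK relative to the median gene.

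The mevalonate steps formed a run of similar values in MEP. Mvk was at 0.45, Pmvk at 0.42, Mvd at 0.44 and Fdps at 0.41, with Idi1 at 0.21. All but Idi1 had their lowest or next to lowest level on DMSO MEP, where the median gene was also lowest before centring. The second probes of Mvk and Pmvk gave 0.36 and 0.31. Further along, Fdft1 was at 0.16, Lss at 0.11, Msmo1 at 0.18, Nsdhl at 0.08 (second probe 0.46), Ebp at 0.23, Sc5d at 0.11, Dhcr7 at 0.01 and Acat2 at 0.10. The 2 enzymes below the median gene were Hsd17b7 (-0.10, second probe 0.13) and Tm7sf2 (-0.43, second probe -0.66).

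Fatty acid synthesis gave 2 of the 5 higher members. Acly, which supplies cytosolic acetyl-CoA to both pathways, read 5.26, 5.32, 4.72 and 5.62, a 1.48-fold higher value with JQ1 in MEP (0.57), and its second probe gave 0.58. Acaca, the carboxylase of the committed step, read 4.47, 4.56, 3.71 and 4.61, with 0.56 in MEP. Its second probe, far dimmer, gave -0.18, so the probes of Acaca disagree. Fasn, the synthase itself, read -0.55, -0.46, -0.55 and -0.39 and was at -0.18, hardly differing between the arrays.

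The sensor genes lay on both sides of the median gene in MEP. Srebf1 read -1.40, -1.11, -1.86 and -0.94 and was 1.49-fold higher with JQ1 (0.57). Its level was lowest on DMSO MEP and highest on JQ1 MEP, as for the median gene before centring. Srebf2 read 0.50, 0.71, 0.29 and 0.51 and was at -0.12, though its dimmer probe gave -1.35. Scap was at 0.36 and Insig2 at -0.09, with its second probe at -0.44. Insig1, both a brake on SREBP and a target of it, read -0.09, -0.05, 0.13 and -0.04, a value 1.42-fold lower (-0.50). It was highest on DMSO MEP, unlike most of the enzymes.

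Stard4, another SREBP2 target, read 1.71, 2.21, 1.91 and 2.65. Its JQ1 difference was similar in both cell types, 0.44 in LSK and 0.40 in MEP, and both JQ1 arrays were above both DMSO arrays; its dimmer probe gave -0.07 and -0.11. Of the 20 sterol enzymes and SREBP feedback targets (with Insig1 and Stard4) 17 lay above the median gene in MEP and 6 in LSK, where 50% of measured genes did. All but Insig1 and Stard4 are the enzymes already counted. Insig1 lay below the median gene in both cell types, at -0.02 in LSK and -0.50 in MEP.

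On the oxysterol receptor side, Mylip, a ubiquitin ligase that removes lipoprotein receptors, had the lowest JQ1 difference of the members in MEP. It read 0.84, 0.96, 0.26 and -0.05. It was 1.56-fold lower with JQ1 in MEP (-0.64), and both MEP arrays lay below both LSK arrays. Abca1, the cholesterol exporter most tied to these receptors, read -0.85, -0.94, -1.40 and -1.13, with a difference of -0.06. Abcg1 was at 0.18, Nr1h2 at -0.12 and Nr1h3 at -0.01.

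**Figure D3:**
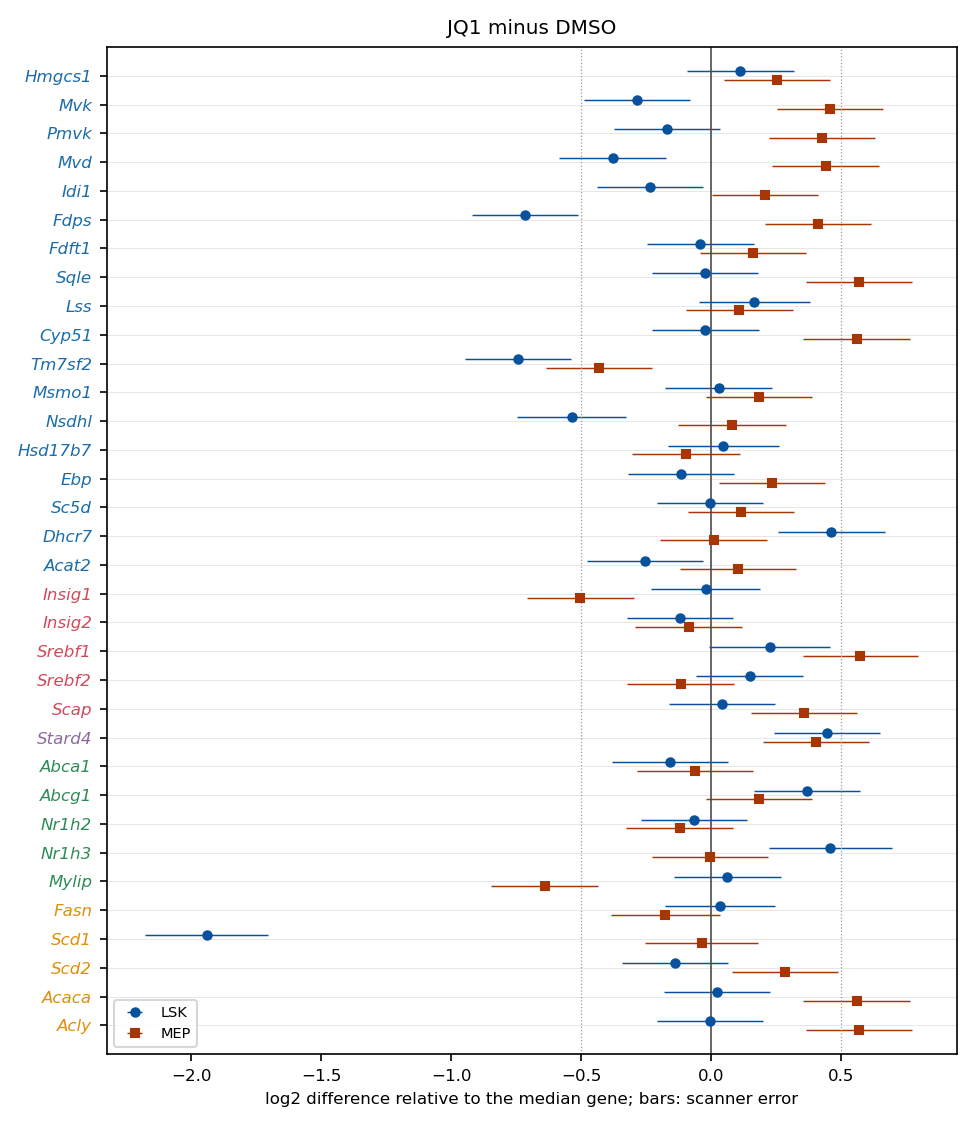
JQ1 minus DMSO for each member in LSK (blue circles) and MEP (brown squares), as log2 difference relative to the median gene, with scanner error bars and dotted lines at 0.5 log2 either way. In MEP 16 of 18 sterol enzymes lie right of 0, in LSK 5 do, and Scd1 in LSK lies farthest from 0 at -1.94.

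Several other gene groups differed in the MEP comparison. Immediate early genes had 11 of 12 members measured and all 11 below the median gene, at a median of -1.71, and their summed level was 442 on DMSO MEP against 124 to 151 on the other arrays. The nuclear RNAs Malat1, Neat1 and Kcnq1ot1 had a median of -3.46. B-lineage genes had all 7 measured members below the median gene, in LSK at a median of -2.46 and in MEP at -1.86. Proliferation genes had a median of 0.29, with 11 of 14 measured members above the median gene, and markers of erythroid and megakaryocyte progenitors a median of 0.49, with 8 of 10 above it. Neutrophil genes had 6 of 7 above it at a median of 0.48, with a summed level of 858 on DMSO MEP and 1554 on JQ1 MEP. Brighter genes in general were a little higher, since the 6268 genes with the stronger signal had a median of 0.10 and 14 of 18 sterol enzymes lay above that too. The part of these in the sterol values was not tested.

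The JQ1 differences of the 2 cell types use no common array, so they can be set side by side. Of the 18 sterol enzymes, 12 lay below the median gene in LSK and above it in MEP, 66.67%, where 22.67% of 12008 genes measured on all arrays did. Over all members it was 14 of 34, 41.18%. For most of these enzymes the LSK value was near 0, so the side of the median gene says little there. Without the background filter, 10 of the 18 lay above the median gene in LSK. Values farther from 0 in LSK were those of Fdps (-0.72 and 0.41 in MEP), Nsdhl (-0.54 and 0.08), Mvd (-0.38 and 0.44) and Mvk (-0.29 and 0.45).

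Subtracting the LSK difference from the MEP difference, the sterol enzymes had a median of 0.34 and the fatty acid members 0.53. Above the median gene were 15 of 18 enzymes (50% of genes). Of all members 10 were higher by 0.5 log2 (11.7% of genes; 4 without the background filter) and 1 was lower (17.0%), and 2 passed 2-fold, Scd1 at 1.89 and Fdps at 1.12 (9.23% of genes either way). The single lower member was Mylip at -0.71. The higher ones also included Mvd (0.81), Mvk (0.73), Nsdhl (0.61), Pmvk (0.59), Sqle (0.58), Cyp51 (0.57), Acly (0.56) and Acaca (0.53). Each of these values rests on the DMSO MEP array, and the difference between cell types was not tested.

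**Figure D4:**
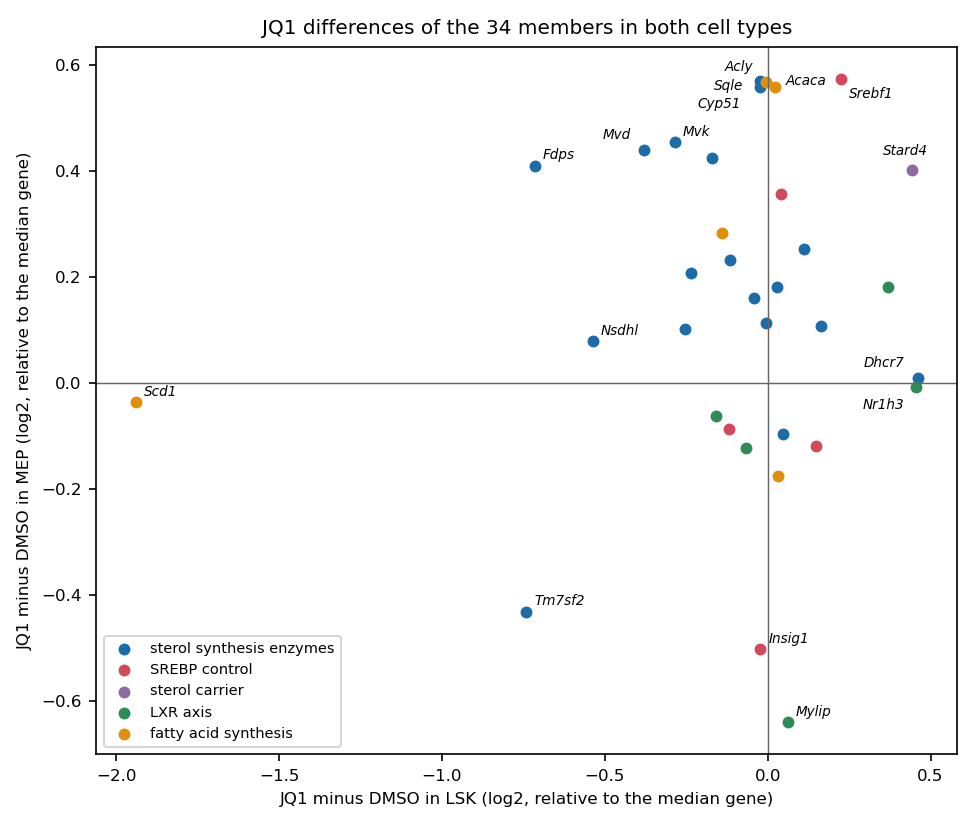
JQ1 minus DMSO in LSK (x axis) against MEP (y axis) for the 34 members, both in log2 relative to the median gene, coloured by group. Most blue points, the sterol enzymes, lie above the horizontal line and to the left of or near the vertical one; Scd1 lies alone at the left and Mylip, Insig1 and Tm7sf2 at the bottom.

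Between the cell types, the members differed little under DMSO. In MEP minus LSK, 5 of 18 sterol enzymes lay above the median gene, with a median of -0.11. Without the background filter 11 did. By 0.5 log2, 1 member was higher, Lss at 0.66 (17.1% of 12399 genes), and 4 were lower (14.7%; 1 with normexp): Scd1 (-0.85), Abcg1 (-0.58), Acaca (-0.54) and Fdps (-0.50). None passed 2-fold, against 9.99% of genes.

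Under JQ1, the comparison that leaves out the DMSO MEP array, the sterol enzymes were mostly higher in MEP. Above the median gene lay 15 of 18, with a median of 0.28, and 6 enzymes passed 0.5 log2: Idi1 (0.88), Mvd (0.78), Fdps (0.61), Lss (0.59), Pmvk (0.51) and Nsdhl (0.51). With Scd1 that makes 7 members higher (10.6% of 12254 genes; 2 among genes above the median signal), and 3 were lower (13.2%): Mylip (-1.08), Abcg1 (-0.78) and Dhcr7 (-0.65). Scd1 at 1.04 and Mylip passed 2-fold (7.93% either way). All 5 members of the oxysterol receptor axis lay below the median gene here, above which 50% of measured genes lie. Nr1h2 at -0.11, Nr1h3 at -0.25 and Abca1 at -0.25 were within the probe SD of 0.27. The markers that define the sorts differed far more, as Ly6a was at -4.13 and Klf1, an erythroid transcription factor, at 4.74.

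**Figure D5:**
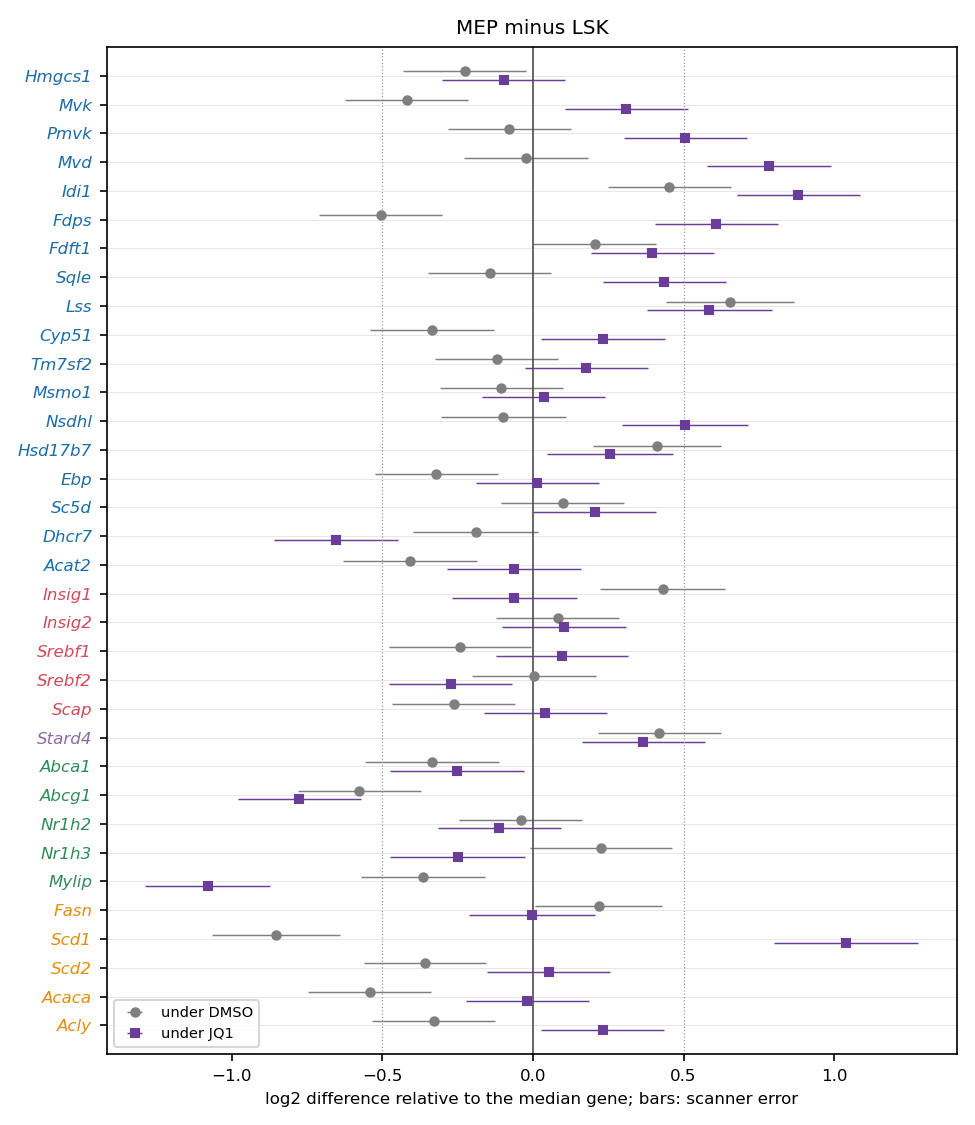
MEP minus LSK for each member under DMSO (grey circles) and under JQ1 (purple squares), as log2 difference relative to the median gene, with scanner error bars and dotted lines at 0.5 log2. Idi1 and Lss lie right of 0 and Abcg1 and Mylip left of it under both treatments, while Scd1 changes sides, from -0.85 to 1.04.

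Some members kept their side in both cell type comparisons, which share no array. Idi1 read 3.40, 3.23, 3.63 and 4.18, with MEP minus LSK at 0.45 and 0.88. Lss, the cyclase that makes lanosterol, was at 0.66 and 0.59. Stard4 was at 0.42 and 0.37. Abcg1, which exports cholesterol to lipoproteins, read 3.51, 3.94, 2.72 and 3.24, with both MEP arrays below both LSK arrays. Its differences were -0.58 and -0.78, and those of Mylip -0.37 and -1.08.

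A wider list of 50 related lipid genes was read in the same way. In LSK 44 were measured with a median of -0.01, 2 higher and 1 lower by 0.5 log2, where 3.37% and 9.31% of all measured genes were. In MEP 45 were measured with a median of 0.08, 5 higher and 4 lower, where 6.76% and 16.6% were. Past 2-fold in LSK (3.77% of all measured genes) was Pltp alone, a phospholipid transfer protein regulated by the liver X receptors, which read -1.27, -3.61, -3.42 and -3.25. Like Scd1 it stood high on DMSO LSK, and it was 5.28-fold lower there with JQ1.

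Past 2-fold in MEP were 4 related genes, where 6.75% of all measured genes were. Dgat2, which makes triglyceride, read 1.32, 1.26, 0.51 and 1.97, a 2.18-fold higher value with JQ1. Me1, the malic enzyme that supplies NADPH for fatty acid synthesis, read -1.42, -0.75, -0.16 and 1.18 and was 2.0-fold higher. Mlxipl, which encodes the carbohydrate-responsive factor ChREBP, read 2.40, 2.50, 3.54 and 1.92, 3.89-fold lower, with DMSO MEP the high array. The fatty acid transporter Cd36 read -1.85, -3.76, -2.01 and -3.16; it was 2.80-fold lower in MEP, and on JQ1 LSK it was not well above background.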

How the data were processed

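The Cy3 images were read with Feature Extraction 10.7.1.1 from Agilent, per the file headers, under its GE1_107_Sep09 settings for array design 028005 (mm9). The deposited files hold for each spot a processed signal as a background-corrected intensity, its error, and yes or no marks. The authors' deposited table holds a linear ratio; for probes above 1 in it, 100.0% lay within 1% of the scanner intensity divided by 1 number per array. The sources used here do not describe how that table was made.

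Spots with an outlier mark were dropped, log2 signals of a probe's spots averaged, and each array's 75th percentile subtracted. Of 55681 probes, 28020 (50.32%) received 1 symbol through their transcript in RefSeq (GRCm38.p6), and 27661 none. A gene was its brightest probe, measured where well above background on both arrays, and differences were centred on the median measured gene. The 4 groups have 1 array each, so there was no test and array number limits precision. The calculation was tested on simulated data (Python 3.11.15; R 4.3.3 and limma 3.58.1 for normexp with offset 50). Normexp used the median spot signal, in place of the mean signal that had been planned.

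Members, groups and lists were chosen with earlier results of these data known. Each member is named, and values on all 4 arrays are given for members past 0.5 log2 in a JQ1 comparison or past 1 log2 between cell types, and for Hmgcs1, Sqle, Srebf2, Insig1, Stard4, Abca1, Fasn and Scd2, which stand for steps of the pathway; Idi1 and Abcg1 were added after their values were seen. Alternatives were median and spike-in scaling, quantile normalization, normexp, the deposited table, the mean over probes, no background filter, and genes above the median signal only.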

Additional observations from a re-analysis of the deposited data

Results flagged for a closer look

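Among the sterol enzymes, 3 went opposite ways with JQ1 in LSK and MEP, each by more than the spread between probes of a gene in that comparison. That spread is an SD of 0.26 in LSK and 0.39 in MEP. The share of all measured genes that pass this rule was not counted, so the count is not a result about these enzymes. The rule picks genes whose LSK and MEP differences lie apart, so large values between the cell types follow from it. Fdps was at -0.72 in LSK and 0.41 in MEP, and the MEP difference minus the LSK difference, relative to the median gene, was 1.12. Under the alternatives the Fdps value in MEP ranged from 0.20 to 0.44, so it can fall below that spread. Mvd was at -0.38 and 0.44, with 0.81 between the cell types. Mvk was at -0.29 and 0.45, with 0.73, but its second probe gave -0.19 and 0.36, which do not pass the rule. With 1 array per group these differences between cell types were not tested.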

How the results depend on the processing

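No paired analysis was possible because each group has 1 array, and no array could be left out. Of the 8 alternatives, scaling to the array median or to spike-in probes cannot move a centred value, and the deposited table is the same signal divided by a constant. Medians near 0 changed sign without the background filter: for JQ1 in LSK the sterol enzymes were then at 0.07, the members at 0.12 and the fatty acid members at 0.14 (0.04 with normexp), for MEP against LSK with DMSO the first pair were at 0.03 and 0.01, and with JQ1 the fatty acid members were at -0.01. Without the filter, the sterol enzymes above the median gene also went from 5 to 10 for JQ1 in LSK. For MEP against LSK with DMSO they went from 5 to 11. For JQ1 in MEP the sterol median ranged from 0.11 to 0.25, and for MEP against LSK under JQ1 from 0.22 to 0.34.

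Counts of members past 0.5 log2 were less stable, as many values lie near that limit. For JQ1 in MEP the 5 higher members became 3 with quantile normalization and with normexp and 0 both without the background filter and for bright genes alone (those above the median signal), and the 2 lower became 0, 1 and 0 with quantile normalization, normexp and bright genes alone. In LSK the 0 higher became 1 with quantile normalization and 4 without the filter, and the 4 lower became 1 among bright genes. For MEP against LSK under DMSO the 1 higher became 2 (quantile), 5 (no filter) and 0 (bright genes), and the 4 lower became 1 (normexp), 1 (no filter) and 2 (bright genes). Under JQ1 the 7 and 3 became 2 and 1 among bright genes. For the difference between cell types the 10 higher became 6 (normexp), 4 (no filter) and 4 (bright genes), and the 1 lower became 2 (mean over probes), 4 (no filter) and 0 (bright genes). Only 16 of the 34 members have bright probes, which lowers counts there.

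Under the 5 alternatives that can move them, 375 values of 17 single members were recomputed. Of these, 33 changed sign, all from sizes of at most 0.18 log2, such as Fasn for JQ1 in MEP (-0.18, and 0.07 with quantile normalization). By more than the spread between probes, 6 moved: Scd1 with normexp (-1.30 in LSK, 0.62 for MEP against LSK under JQ1, 1.38 between cell types) and Srebf2 with the mean over probes (-0.71 in MEP, -0.66 under JQ1, -0.77 between cell types). The causes were not tested.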

Other observations

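Outside the 34 members, some of the related lipid genes differed between the cell types; the ones named here were chosen after their values were seen. In MEP against LSK, Me1 was at 1.48 under DMSO and 1.86 under JQ1, Lpin2, a phosphatidate phosphatase of triglyceride synthesis, at 1.38 and 0.81, Acss2, which makes acetyl-CoA from acetate, at 0.98 and 0.97, and the acyl-CoA synthetase Acsl1 at 0.63 and 1.11. Soat1, which esterifies cholesterol for storage, was lower at -1.36 and -1.02.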
